A study of Pan troglodytes with 217 samples.

Results

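The genes described here are 9 members of the Notch pathway, read in single cells of day 4 chimpanzee blastoids. They are the receptors NOTCH1, NOTCH2 and NOTCH3, the ligands JAG1 and DLL3, the nuclear factor RBPJ, and the target genes HES1, HEY1 and HEY2. They were chosen by symbol, and all 9 were found among the 33729 Ensembl gene identifiers of the count table. Blastoids are blastocyst-like structures that form from naive pluripotent stem cells. Here they came from chimpanzee naive induced pluripotent stem cells, kept in a medium with an EZH2 inhibitor and then led through PALY medium, A83 with LPA and finally N2B27. Most of the mural trophectoderm had been cut away with needles and was dissociated apart, so that shares of cells describe the sequenced cells and not whole blastoids. All cells have this 1 condition, and neither a control nor another time point belongs to these data.

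Notch receptors are membrane proteins that a ligand on a neighbouring cell activates. Proteases of the ADAM family and the gamma-secretase complex then cut the receptor, and its intracellular part enters the nucleus and joins RBPJ, a DNA-binding protein that represses its targets when no receptor fragment is bound. Classical targets are repressors of the HES and HEY families. DLL3 is an atypical ligand that does not activate receptors on other cells. In preimplantation embryos the pathway is known mainly from mouse trophectoderm, where Notch acts with other signals on the trophectoderm gene Cdx2. RNA levels of receptors, ligands or targets do not measure the activity of the pathway.

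All cells except 24 had reads on at least 8000 genes and are described below. They formed an epiblast-like class of 50 cells, a hypoblast-like class of 32 cells and a trophectoderm-like class of 2 clusters, in a clustering from which the Notch pathway genes were left out. With these genes kept in, every cell had the same class. One trophectoderm-like cluster held 60 cells and little RNA of the chemokine receptor CCR7, and the other held 51 cells and much of it. They are called CCR7-low and CCR7-high here and had CCR7 at 5.71 and 315 CPM, which is the number of reads of a gene per 1000000 reads. The median cell had 3951119 reads on genes in the epiblast-like class, 3978823 in the hypoblast-like class and 3960857 in the trophectoderm-like class. The epiblast marker NANOG had a level of 243.7 CPM in the epiblast-like class, against 32.9 in the hypoblast-like and 3.64 in the trophectoderm-like class. Of the 10 epiblast markers, 8 were read in 50% or more of epiblast-like cells, but KLF17 was read in 10 of 50 and ARGFX in 23. Of 5 amnion markers, only ISL1 was read in 50% or more of epiblast-like cells. It was found in 38 of 50 at 14.7 CPM, against 0.451 in hypoblast-like and 0.126 in trophectoderm-like cells. Every hypoblast-like cell had a read of the hypoblast marker PDGFRA, but FOXA2 was read in 15 of 32, and LAMA1, also on the hypoblast list, was higher in trophectoderm-like (319.2 CPM) than in hypoblast-like cells (166.7 CPM). The trophectoderm marker GATA3 was read in every trophectoderm-like cell at a level of 691 CPM, and also in 37 of 50 epiblast-like cells (70.4 CPM) and 25 of 32 hypoblast-like cells (58.5 CPM).

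Markers of other classes were found in many cells. In the hypoblast-like class, 7 of the 10 epiblast markers were detected in 50% or more of cells, and the list summed to between 101.5 and 1955 CPM per cell with a median of 487. At least 3 epiblast markers reached 10 CPM in 22 hypoblast-like and 20 trophectoderm-like cells. For trophectoderm markers this held in 21 epiblast-like and 15 hypoblast-like cells, and for hypoblast markers in 3 epiblast-like and 6 trophectoderm-like cells. Without all such cells 28 epiblast-like, 8 hypoblast-like and 87 trophectoderm-like cells remained, and many values below are also given from these cells alone. Below, cells that held markers of another class are those with at least 3 of them at 10 CPM. The cells that remained were not free of such markers. POU5F1, on the epiblast list, reached 10 CPM in every hypoblast-like cell and 89 trophectoderm-like cells, and DPPA2 in 27 and 100. LAMA1, on the hypoblast list, did so in every trophectoderm-like cell. Whether the cells left out were mixtures or lay between classes was not tested. As the labels tie no cell to a line, blastoid or batch, all cells count as 1 sample. No difference was therefore tested, and 95% intervals cover counting error only, since copies of 1 cDNA molecule are counted as separate reads. Levels are CPM of reads summed over the cells of a class, and they are compared for 1 gene between classes, never between genes, because gene lengths were not used.

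Among the 9 genes, 8 were detected in 50% or more of epiblast-like cells, 5 in 50% or more of hypoblast-like cells and 4 in 50% or more of trophectoderm-like cells. At 10 CPM or more these counts were 2, 1 and 2. The share of all genes detected in this way was not computed, here or for the pathway groups below. These counts therefore have no background. The median cell had 11736.5 genes with a read in the epiblast-like, 10993.5 in the hypoblast-like and 10986 in the trophectoderm-like class. HEY2, JAG1 and DLL3 were highest in epiblast-like cells. HES1 and RBPJ were highest in trophectoderm-like cells, and the 3 receptors were read in each class. HEY1 was hardly detected in any class.

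**Figure D1:**
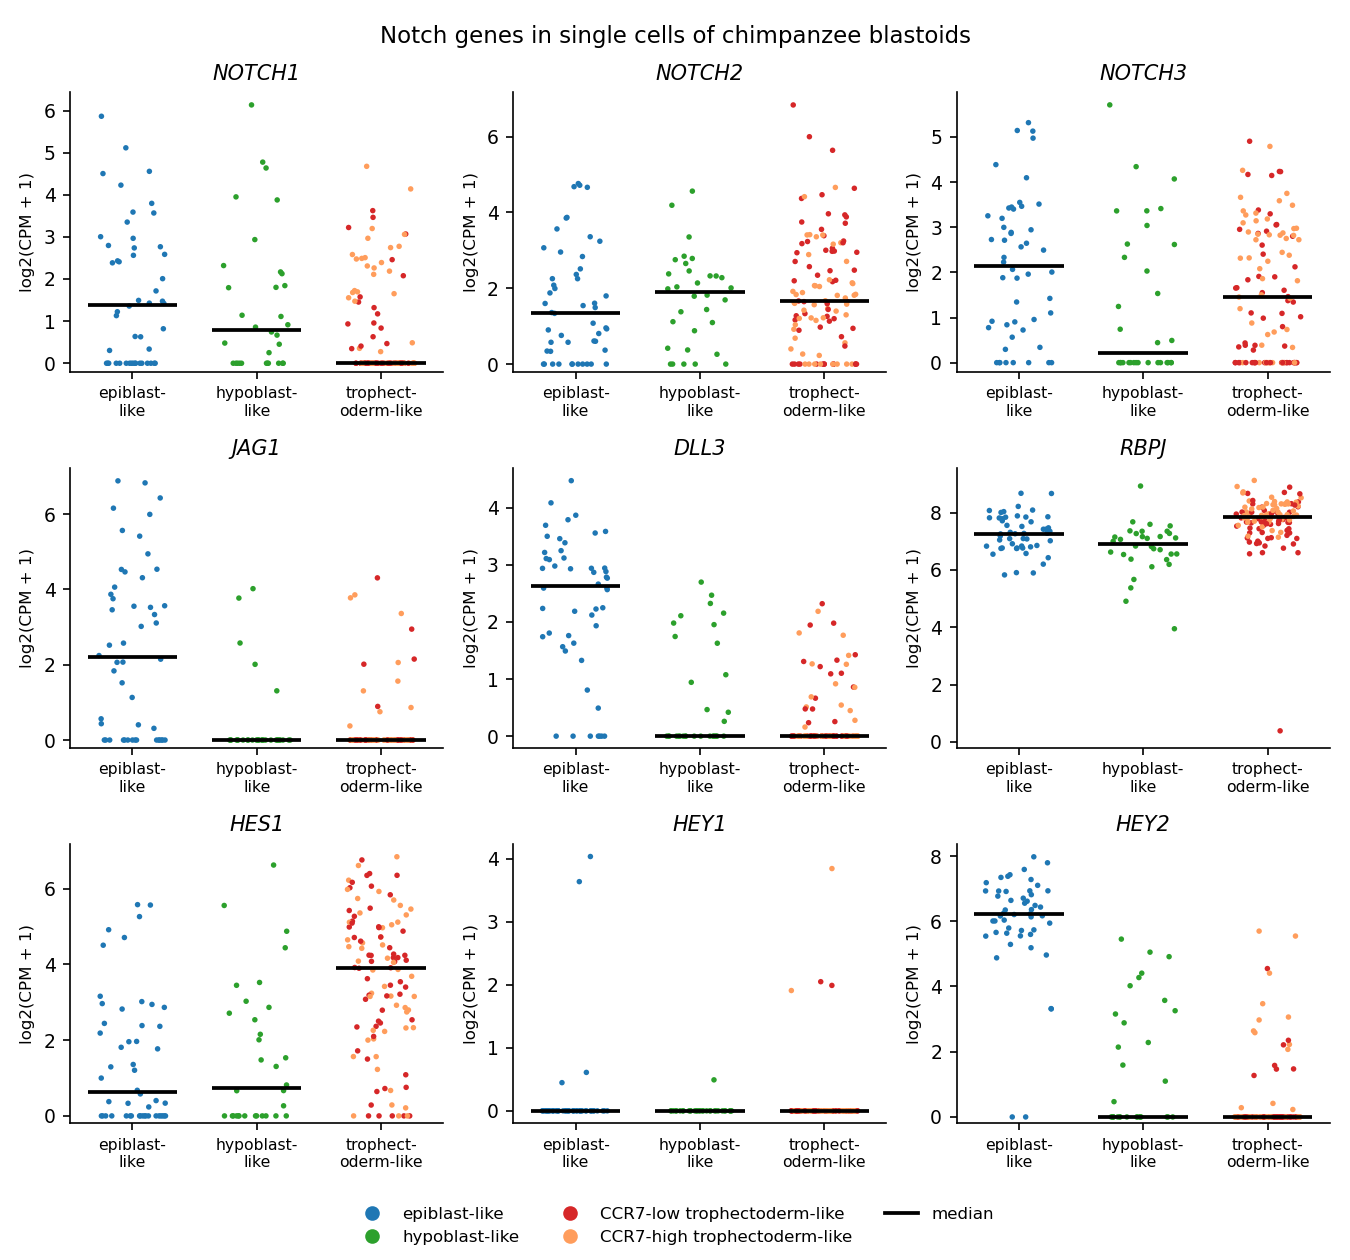
Level of each Notch gene in each cell, as log2(CPM + 1) on the vertical axis, by class on the horizontal axis. Each point is 1 cell, the bars are medians, and the trophectoderm-like cells are coloured by cluster. HEY2 is above 10 CPM in 46 of 50 epiblast-like cells and at 0 in most others, whereas the receptors spread from 0 upwards in every class.

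NOTCH1 (ENSPTRG00000021561) had a level of 4.88 CPM (95% Poisson interval 4.59 to 5.18) in the epiblast-like class, against 3.94 (3.61 to 4.30) in the hypoblast-like and 1.88 (1.77 to 2.01) in the trophectoderm-like class. In single epiblast-like cells it ranged from 0 to 57.2 CPM with a median of 1.62, in hypoblast-like cells from 0 to 69.2 with a median of 0.742, and in trophectoderm-like cells from 0 to 24.5 with a median of 0. The ranges overlapped widely, and each class held cells with no NOTCH1 read. A read was found in 33 epiblast-like cells (66%, exact Clopper-Pearson interval 51.2% to 78.8%), 21 hypoblast-like cells (65.6%, 46.8% to 81.4%) and 42 trophectoderm-like cells (37.8%, 28.8% to 47.5%). When each cell was thinned to 2532312 reads, which left out 20 shallower cells, the shares were 66.7%, 60% and 36%. A single hypoblast-like cell held 38.5% of the NOTCH1 reads of its class, and without it the level was 2.48 CPM. The ratio of epiblast-like to trophectoderm-like cells was just past 2-fold, at 1.03 on the log2(CPM + 1) scale. Without the cells that held markers of another class this ratio was 0.45, since NOTCH1 was then at 2.92 CPM (2.62 to 3.24) in epiblast-like, 3.57 (2.97 to 4.25) in hypoblast-like and 1.88 (1.75 to 2.01) in trophectoderm-like cells. The order of the epiblast-like and hypoblast-like classes was then turned, with overlapping intervals and a log2 ratio of -0.22. That turn rests on 1 of the 8 hypoblast-like cells left, which held 44.8% of their NOTCH1 reads, and without it the level was 2.11 CPM and the log2 ratio 0.33. One epiblast-like cell held 24.2% of the reads of its class in this setting. When the cell with the most reads was left out of both classes, epiblast-like cells were at 2.285 CPM and the log2 ratio was 0.079. The 2 classes then hardly differed, and their intervals overlapped.

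NOTCH2 (ENSPTRG00000048364) was the receptor among the 3 whose highest level lay in the trophectoderm-like class. This level was 7.23 CPM (7.002 to 7.47), against 4.11 (3.84 to 4.39) in epiblast-like and 3.76 (3.43 to 4.11) in hypoblast-like cells, and the intervals of the latter pair overlapped. Medians over cells had another order, with 1.55 CPM in epiblast-like (0 to 26.2), 2.74 in hypoblast-like (0 to 22.6) and 2.17 in trophectoderm-like cells (0 to 113.3). NOTCH2 was read in 39 epiblast-like cells (78%, 64.04% to 88.5%), 27 hypoblast-like cells (84.4%, 67.2% to 94.7%) and 90 trophectoderm-like cells (81.1%, 72.6% to 87.9%), and these intervals overlap. One trophectoderm-like cell, the most deeply sequenced with 25630392 reads, held 33.6% of the NOTCH2 reads of its class. The class was at 5.06 CPM without that cell. Without cells that held markers of another class the trophectoderm-like level was 8.06 CPM and more than 2-fold that of the others, which were at 2.23 CPM (log2 ratio -1.49 for epiblast-like over trophectoderm-like cells) and 2.71 CPM (-1.29 for hypoblast-like over trophectoderm-like cells). The same deeply sequenced cell was still among them. Without that cell too, an alternative chosen after seeing the data, the trophectoderm-like level was 5.38 CPM, and the log2 ratios were -0.98 and -0.78, both under 2-fold. When the cell with the most NOTCH2 reads was left out of every class, they were -1.14 and -0.75. NOTCH2 has partial copies in great ape genomes, and how reads shared with such copies were counted is not given in the sources used here, so its level is uncertain.

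NOTCH3 (ENSPTRG00000010617) had a level of 6.38 CPM (6.05 to 6.73) in the epiblast-like class, against 4.71 (4.35 to 5.11) in the hypoblast-like and 3.83 (3.67 to 4.01) in the trophectoderm-like class. A read was found in 42 epiblast-like cells (84%, 70.9% to 92.8%), 16 hypoblast-like cells (50%, 31.9% to 68.1%) and 78 trophectoderm-like cells (70.3%, 60.9% to 78.6%). The median cell was at 3.44 CPM in the epiblast-like class (0 to 38.9), at 0.180 in the hypoblast-like class (0 to 51.4) and at 1.76 in the trophectoderm-like class (0 to 28.98). Hypoblast-like cells thus had the lowest median and share of the classes, although their summed level was in the middle. One hypoblast-like cell held 37.6% of the NOTCH3 reads of its class. Without it NOTCH3 was at 3.05 CPM, below the trophectoderm-like level. Without cells that held markers of another class, epiblast-like cells were at 5.32 CPM, hypoblast-like cells at 1.54 CPM and trophectoderm-like cells at 4.24 CPM, which put the ratio of epiblast-like to hypoblast-like cells past 2-fold (log2 ratio 1.31). One of these hypoblast-like cells held 42.6% of the reads, and without it their level was 1.01 CPM. The ratio of hypoblast-like to trophectoderm-like cells had no stable direction. It was 0.24 on the log2(CPM + 1) scale for summed reads, -1.23 for medians over cells and -1.04 without cells that held markers of another class, so that the latter values were past 2-fold in the opposite direction.

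Most cells held at least 1 of the 3 receptors, with 48 of 50 epiblast-like cells, all 32 hypoblast-like cells and all trophectoderm-like cells except 7. All 3 receptors were read together in 23 epiblast-like, 8 hypoblast-like and 30 trophectoderm-like cells. At 10 CPM or more, a receptor was present in 21 epiblast-like, 10 hypoblast-like and 25 trophectoderm-like cells. Exactly 1 receptor reached that level in 18, 10 and 22 of these cells, so that high levels of several receptors in 1 cell were rare.

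**Figure D2:**
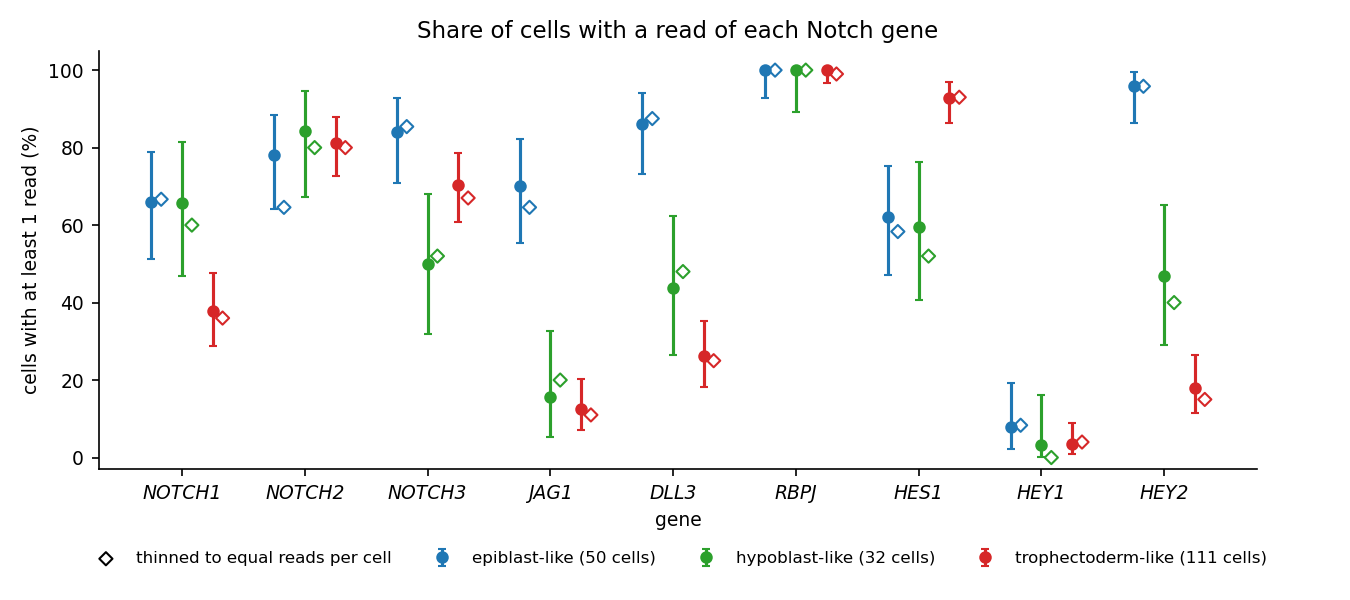
Share of cells with at least 1 read of each Notch gene (vertical axis, percent) in each class. Filled circles with bars are all cells with exact Clopper-Pearson 95% intervals, and open diamonds are cells thinned to 2532312 reads. Before thinning, JAG1, DLL3 and HEY2 are read in at least 70% of epiblast-like cells and in fewer than 50% of the cells of each other class, and HES1 is read in 92.8% of trophectoderm-like cells. In thinned epiblast-like cells the JAG1 share is 64.6%.

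JAG1 (ENSPTRG00000013250), a membrane ligand of the Jagged family, had a level of 14.1 CPM (13.6 to 14.6) in the epiblast-like class, against 1.37 (1.17 to 1.59) in the hypoblast-like and 0.647 (0.579 to 0.720) in the trophectoderm-like class. The epiblast-like level was 10.3-fold the hypoblast-like and 21.7-fold the trophectoderm-like one. The median epiblast-like cell was at 3.58 CPM, the lowest at 0 and the highest had 322 JAG1 reads among its 2751275 reads. Hypoblast-like cells ranged from 0 to 15.2 CPM and trophectoderm-like cells from 0 to 18.8 CPM, both with a median of 0. JAG1 was read in 35 epiblast-like cells (70%, 55.4% to 82.1%), 5 hypoblast-like cells (15.6%, 5.28% to 32.8%) and 14 trophectoderm-like cells (12.6%, 7.07% to 20.3%). Epiblast-like cells were thus not uniform, with 15 cells without a read and 18 at 10 CPM or more. A single hypoblast-like cell held 59.1% of the JAG1 reads of its class, and the level without it was 0.592 CPM. In the 5 hypoblast-like cells with a JAG1 read, the 10 epiblast markers summed to 764 to 1208 CPM, and each of the 5 had at least 3 of them at 10 CPM. The part of such cells in the hypoblast-like JAG1 level was not tested. Of the 8 hypoblast-like cells without markers of other classes, 0 had a JAG1 read, where 3 reads would be 0.0856 CPM. In epiblast-like cells without markers of other classes JAG1 was at 7.12 CPM (6.65 to 7.61).

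DLL3 (ENSPTRG00000010975) had a level of 5.40 CPM (5.09 to 5.72) in the epiblast-like class, against 1.08 (0.909 to 1.28) in the hypoblast-like and 0.323 (0.276 to 0.376) in the trophectoderm-like class. The epiblast-like level was 4.99-fold and 16.7-fold the others. Epiblast-like cells ranged from 0 to 21.2 CPM with a median of 5.19 and quartiles of 2.16 and 7.68. Hypoblast-like cells ranged from 0 to 5.49 CPM and trophectoderm-like cells from 0 to 3.99 CPM, both with a median of 0. Only 1 of 32 hypoblast-like cells was above the median epiblast-like cell. DLL3 was read in 43 epiblast-like cells (86%, 73.3% to 94.2%), 14 hypoblast-like cells (43.8%, 26.4% to 62.3%) and 29 trophectoderm-like cells (26.1%, 18.3% to 35.3%). Unlike that of JAG1, its epiblast-like level was somewhat higher without the cells that held markers of another class, at 6.76 CPM (6.30 to 7.24).

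At least 1 of JAG1 and DLL3 was read in 49 epiblast-like, 15 hypoblast-like and 40 trophectoderm-like cells. A receptor and 1 of these ligands were read in the same cell in 47 epiblast-like cells (94%, 83.5% to 98.8%), 15 hypoblast-like cells and 38 trophectoderm-like cells. In thinned cells this held for 45 of 48, 13 of 25 and 31 of 100. Both ligands were read together in 29 of 50 epiblast-like cells. At 10 CPM or more, 24 epiblast-like cells had at least 1 ligand and 2 had both.

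RBPJ (ENSPTRG00000015968) had a read in every cell of each class. Its level was 243.2 CPM (241.8 to 244.5) in the trophectoderm-like class, against 169.6 (167.9 to 171.4) in the epiblast-like and 124.1 (122.2 to 126.1) in the hypoblast-like class. Single cells ranged from 55.8 to 408 CPM with a median of 153.2 in the epiblast-like class, from 14.4 to 486 with a median of 120 in the hypoblast-like class, and from 0.305 to 557 with a median of 226.8 in the trophectoderm-like class. Most cells of every class lay in a common range, with 11 of 50 epiblast-like cells above the trophectoderm-like median. The trophectoderm-like level was 1.43-fold the epiblast-like and 1.96-fold the hypoblast-like one. The ratio of hypoblast-like to trophectoderm-like cells was just under 2-fold on the log2(CPM + 1) scale, at -0.96, and just past it, at -1.26, without cells that held markers of another class.

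HES1 (ENSPTRG00000045020), a repressor and classical Notch target that other pathways also induce, had its highest level in the trophectoderm-like class, at 22.2 CPM (21.8 to 22.6). Hypoblast-like cells were at 6.40 CPM (5.97 to 6.86) and epiblast-like cells at 4.97 CPM (4.68 to 5.28), so that the trophectoderm-like level was 3.47-fold and 4.47-fold the others. The median cell was at 0.547 CPM in the epiblast-like class (0 to 46.8), at 0.675 in the hypoblast-like class (0 to 97.7) and at 14.1 in the trophectoderm-like class (0 to 113.8). Only 4 of 32 hypoblast-like cells exceeded the trophectoderm-like median. HES1 was read in 31 epiblast-like cells (62%, 47.2% to 75.3%), 19 hypoblast-like cells (59.4%, 40.6% to 76.3%) and 92.8% of trophectoderm-like cells (86.3% to 96.8%). One hypoblast-like cell held 40.3% of the HES1 reads of its class, and without it the level was 3.92 CPM, below the epiblast-like one. In the 6 epiblast-like cells with HES1 at 10 CPM or more, the 10 trophectoderm markers summed to 60.4 to 1609 CPM, and 5 of the 6 had at least 3 of them at 10 CPM. The part of these cells in the epiblast-like level was not tested. Without cells that held markers of another class the epiblast-like level was lower, in an interval of 2.32 to 2.91 CPM. The 8 hypoblast-like cells left were then at 10.1 CPM, with a HES1 read in 3 of them, and the log2 ratio of epiblast-like to hypoblast-like cells was -1.62. This value rests on 1 cell, which held 93.8% of their 354 HES1 reads. Without that cell alone the log2 ratio was 1.09, just past 2-fold in the other direction. One epiblast-like cell held 51.1% of the reads of its class in this setting. Without the cell with the most HES1 reads in each class, chosen after seeing the data, the hypoblast-like level was 0.695 CPM, the epiblast-like level 1.31 CPM and the log2 ratio 0.45, in the other direction and under 2-fold. Against trophectoderm-like cells, HES1 was at least 2-fold lower in both classes in each of these ways. For the 8 hypoblast-like cells without markers of another class this held only just, with a log2 ratio of -1.007. It was -0.90, under 2-fold, when only the trophectoderm-like cell with the most HES1 reads was also left out.

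HEY2 (ENSPTRG00000018574), a repressor of the HEY family known best from heart and vessels, had the largest ratios of epiblast-like to both other classes among the 8 genes compared. Its level was 85.98 CPM (84.8 to 87.2) in the epiblast-like class, against 5.59 (5.19 to 6.01) in the hypoblast-like and 1.60 (1.49 to 1.71) in the trophectoderm-like class, which made the epiblast-like level 15.4-fold and 53.9-fold the others. Epiblast-like cells ranged from 0 to 250.8 CPM with a median of 74.4 and quartiles of 50.03 and 120.4. Hypoblast-like cells ranged from 0 to 42.8 CPM and trophectoderm-like cells from 0 to 50.9 CPM, both with a median of 0. Of the 32 hypoblast-like cells, 0 were above the median epiblast-like cell. HEY2 was read in 48 epiblast-like cells (96%, 86.3% to 99.5%), 15 hypoblast-like cells (46.9%, 29.1% to 65.3%) and 20 trophectoderm-like cells (18.02%, 11.4% to 26.5%), and it reached 10 CPM in 46, 7 and 5 of them. Each of these 7 hypoblast-like and 5 trophectoderm-like cells also had at least 3 epiblast markers at 10 CPM. The epiblast list summed to 207.9 to 1955 CPM in the 7 cells and to 235.4 to 743 CPM in the 5 cells. Their part in the HEY2 levels was not tested. Without cells that held markers of another class HEY2 was at 97.5 CPM (95.8 to 99.3) in the epiblast-like class, 2.11 (1.66 to 2.65) in the hypoblast-like and 0.503 (0.437 to 0.575) in the trophectoderm-like class. Single cells held 60.8% of these hypoblast-like and 44.5% of these trophectoderm-like reads, and without them the levels were 0.974 and 0.297 CPM.

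HEY1 (ENSPTRG00000020364), the close relative of HEY2, had a read in 9 cells. These were 4 epiblast-like cells (8%, 2.22% to 19.2%), 1 hypoblast-like cell (3.13%, 0.0791% to 16.2%) and 4 trophectoderm-like cells (3.60%, 0.990% to 8.97%). Its level was 0.539 CPM (0.446 to 0.647), 0.0156 CPM (0.00188 to 0.0562) and 0.190 CPM (0.154 to 0.231) in the same order, and the hypoblast-like value stands for 2 reads. A single cell held 50% of the epiblast-like and another 63.3% of the trophectoderm-like HEY1 reads, and without these cells the levels were 0.274 and 0.0703 CPM. HEY1 was too rare for the comparison of ratios below.

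Neighbouring classes in the order of levels were also compared by their quartiles over cells. For the 9 genes, only HEY2 had a pair of neighbours, epiblast-like and hypoblast-like cells, whose quartile ranges did not overlap. This is 1 of the 8 genes with reads in at least 20 cells, and 7.05% of all 15561 such genes had such a pair, so that the count is near the background. Every other difference between neighbours in the order lay within the spread of the cells by this measure.

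Ratios of class levels were set against all 15561 genes with a read in at least 20 cells, with 2-fold on the log2(CPM + 1) scale as the bound. Of the 8 Notch genes among these, 3 were higher in epiblast-like than in hypoblast-like cells, where 10.8% of all genes were. They were JAG1 with a log2 ratio of 2.67, DLL3 with 1.62 and HEY2 with 3.72. The count of lower ones was 0 of 8, where 4.02% of all genes were lower. Epiblast-like cells were higher than trophectoderm-like cells in 4 of 8, against 15.2% of all genes, namely NOTCH1 with 1.03, JAG1 with 3.19, DLL3 with 2.27 and HEY2 with 5.07. They were lower in 1 of 8, HES1 with -1.96, against 7.71% of all genes. Between hypoblast-like and trophectoderm-like cells 1 gene was higher, HEY2 with 1.34, against 8.68% of all genes, and 1 was lower, HES1 with -1.65, against 8.30%. The HEY2 ratio of hypoblast-like to trophectoderm-like cells was under 2-fold in 4 alternatives, with values from 0 by the median of cells to 0.97 with 2000 variable genes. The counts of 1 of 8 are near the background, and no test was run on any of the counts.

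**Figure D3:**
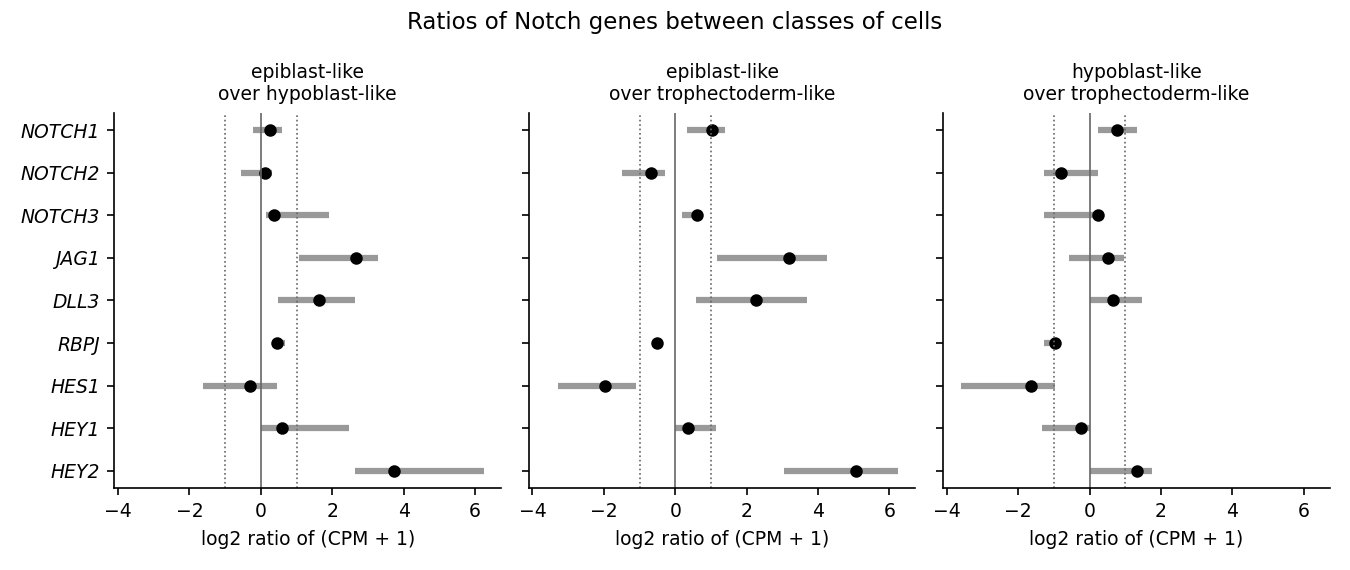
Ratio of each Notch gene between classes, as log2 of (CPM + 1) on the horizontal axis. Black points are the values in the text, grey bars reach from the lowest to the highest of 16 alternative ways to process the data, and dotted lines mark 2-fold. Under these 16, HEY2 and JAG1 stay beyond 2-fold in epiblast-like against both other classes, and HES1 stays beyond 2-fold below the trophectoderm-like level in epiblast-like cells.

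Levels of the 3 receptors did not share a direction between the trophectoderm-like clusters. NOTCH3 was at 4.84 CPM in CCR7-high and 2.88 CPM in CCR7-low cells (log2 ratio 0.59, under 2-fold). Its medians over cells were 3.996 and 0.859 CPM, and it was read in 80.4% and 61.7% of cells. NOTCH1 was at 3.07 CPM in the CCR7-high and 0.768 CPM in the CCR7-low cluster (log2 ratio 1.20). On the log2(CPM + 1) scale it was 1 gene of 8 that was 2-fold higher in CCR7-high cells, as were 5.57% of all genes. In plain CPM, JAG1 and HEY2 were also higher there, 2.67-fold and 2.37-fold at low levels, and the HEY2 log2 ratio was past 2-fold under 3 alternatives, with 1.35 by the mean of cells. Neither was stable, since without cells that held markers of another class the log2 ratios were 0.26 for JAG1 and -0.26 for HEY2, in place of 0.52 and 0.74. In CCR7-low cells 1 cell held 42.1% of the JAG1 and 1 cell 45.5% of the HEY2 reads. NOTCH2 was at 3.65 CPM in CCR7-high and 10.6 CPM in CCR7-low cells (log2 ratio -1.32), and was 1 gene of 8 that was 2-fold lower, as were 4.03% of all genes. The NOTCH1 and NOTCH2 ratios depended on single cells. Without the cell with the most reads of the gene in each cluster, an alternative chosen after seeing the data, they were 0.94 for NOTCH1 and -0.96 for NOTCH2, under 2-fold. For NOTCH2 that cell held 44.4% of the CCR7-low reads, and the cluster was at 6.53 CPM without it. The share of cells with a NOTCH2 read did not follow its level, with 84.3% of CCR7-high and 78.3% of CCR7-low cells. NOTCH1 was read in 25 CCR7-high cells (49.02%, 34.8% to 63.4%) and 17 CCR7-low cells (28.3%, 17.5% to 41.4%). Depth moved the same way, with a median of 4516217 reads in CCR7-high and 3693058 in CCR7-low cells, and in thinned cells the NOTCH1 shares were 47.8% and 25.9%. HES1 was within 2-fold, with 24.1 CPM in CCR7-high cells and 20.4 CPM in CCR7-low cells. The border between the clusters depends on the order in which cells enter the clustering. In the order of accessions, again chosen after seeing the data, 39 cells were CCR7-high and 72 CCR7-low, and the log2 ratios were 1.47 for NOTCH1 and -1.10 for NOTCH2.

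HES1 and HEY2 had their highest levels in different classes, and few cells held much of both. Whether the 2 genes exclude each other within cells was not tested. At 10 CPM or more, 41 of 50 epiblast-like cells had HEY2 without HES1, 1 had HES1 without HEY2, 5 had both and 3 had neither. HEY2 thus reached 10 CPM in 5 of the 6 epiblast-like cells with HES1 at that level, and in 46 of all 50. Among trophectoderm-like cells, 60 had HES1 without HEY2, 3 had HEY2 without HES1, 2 had both and 46 had neither. Hypoblast-like cells were mostly low in both genes, with 21 of 32 at neither, 4 with HES1 alone, 6 with HEY2 alone and 1 with both. Within the epiblast-like class, where both genes were read in 30 of 50 cells, their Spearman correlation over cells was -0.12.

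**Figure D4:**
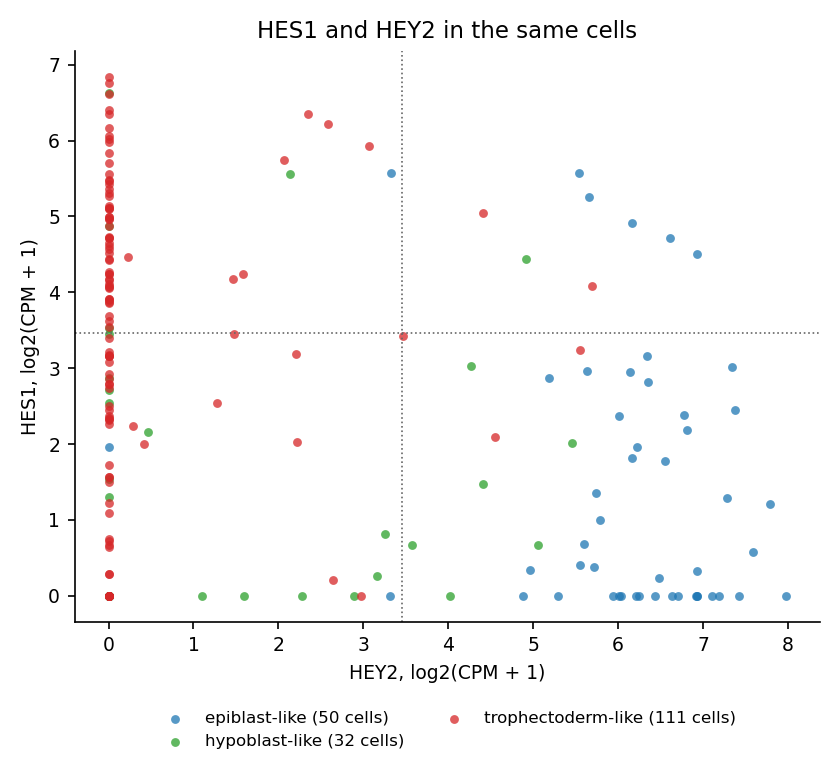
HES1 (vertical axis) against HEY2 (horizontal axis) in each cell, as log2(CPM + 1), coloured by class. Dotted lines mark 10 CPM. The lower right holds 41 epiblast-like cells, the upper left 60 trophectoderm-like cells, and the upper right 5 epiblast-like, 1 hypoblast-like and 2 trophectoderm-like cells.

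Correlations between pairs of the genes within a class are descriptions over cells of 1 sample, which share depth and library quality, and were computed for genes detected in 50% or more of its cells. In epiblast-like cells the 28 pairs ranged from -0.20 to 0.39. DLL3 and HEY2 had the highest value of 0.39, and NOTCH1 and HES1 followed with 0.30. In hypoblast-like cells the 10 pairs ranged from -0.43 to 0.27, and the lowest was NOTCH1 with HES1. In trophectoderm-like cells the 6 pairs ranged from -0.15 to 0.17. These values are weak, and that of NOTCH1 with HES1 had opposite signs in the epiblast-like and hypoblast-like classes.

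The genes whose pattern over all cells of the 3 classes was most like that of each Notch gene were also sought. For HEY2 they were NANOG (Spearman correlation 0.79), PLA2G10 (0.79) and PRDM14 (0.78), of which NANOG and PRDM14 are transcription factors of naive pluripotency. For DLL3 they were GDF3 (0.68), a ligand of the TGF-beta family, PLA2G10 (0.67) and EMP3 (0.66). For JAG1 they were IGF2BP2 (0.52), DPPA5 (0.51) and NANOG (0.51). For RBPJ they were GRHL1 (0.55), PPARG (0.54) and GATA2 (0.54), which are transcription factors, and for HES1 BTG1 (0.52), ZNF326 (0.52) and PPME1 (0.51). Within epiblast-like cells the correlations were 0.27 for HEY2 and NANOG, 0.45 for HEY2 and PRDM14, 0.47 for DLL3 and GDF3 and -0.06 for JAG1 and NANOG, all lower than over the classes together. HES1 and BTG1, a gene that limits cell division, had 0.67 within epiblast-like cells and 0.10 within trophectoderm-like cells. NOTCH1, NOTCH2 and NOTCH3 had no gene at 0.5 or more, with highest values of 0.47, 0.33 and 0.38.

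The wider pathway was described by a list of 57 genes that includes the 9. All 57 had an identifier, and 47 had reads in at least 20 cells. In epiblast-like against hypoblast-like cells, 11 of the 47 (23.4%) were at least 2-fold higher, where 10.8% of all genes were, and 1 (2.13%), KAT2B, was lower, against 4.02%. The median log2 ratio was 0.28 against 0.12 for all genes. In epiblast-like against trophectoderm-like cells, 12 (25.5%) were higher, against 15.2% of all genes, and 4 (8.51%), FURIN, KAT2B, DTX4 and HES1, were lower, against 7.71%, with a median of 0.35 against 0.07. In hypoblast-like against trophectoderm-like cells, NUMB and HEY2 (4.26%) were higher, against 8.68% of all genes, and DLL1, POFUT1, FURIN, DTX4 and HES1 (10.6%) lower, against 8.30%, with a median of 0.05 against -0.03. In CCR7-high against CCR7-low cells, NOTCH1, DLL1, FURIN, KAT2B and NEURL1 (10.6%) were higher, against 5.57% of all genes, and NOTCH2 and ADAM10 (4.26%) lower, against 4.03%, with a median of 0.16 against 0.02. The shares of lower genes in epiblast-like against trophectoderm-like cells and in CCR7-high against CCR7-low cells are near the background.

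Of the 7 ligands, on the log2(CPM + 1) scale, JAG1, DLL1, DLL3 and DLK1 were at least 2-fold higher in epiblast-like than in hypoblast-like cells, JAG1, DLL3 and DLK1 were higher than in trophectoderm-like cells, and 0 were lower in either comparison. Of all genes, 10.8% were higher and 4.02% lower in the first comparison and 15.2% and 7.71% in the other. This scale compresses ratios of low levels. In plain CPM, DLL4 and DLK2 were 5.02-fold and 3.92-fold higher in epiblast-like than in trophectoderm-like cells, and JAG2 was lower, with 0.553 against 1.19 CPM. DLK1, a Notch ligand-like protein that is imprinted in mammals, had a level of 19.4 CPM (18.9 to 20.03) in the epiblast-like class, against 2.86 (2.58 to 3.17) in the hypoblast-like and 1.34 (1.24 to 1.44) in the trophectoderm-like class. It was read in 45 epiblast-like, 11 hypoblast-like and 33 trophectoderm-like cells. Epiblast-like cells ranged from 0 to 84.3 CPM around a median of 17.2, while the medians of both other classes were 0. Without cells that held markers of another class DLK1 was at 21.8, 0.285 and 1.099 CPM, and the hypoblast-like value stands for 10 reads of 1 cell. One trophectoderm-like cell held 43.8% of the reads of its class in this setting, and the level was 0.624 CPM without it. The remaining receptor NOTCH4 had a read in 24 cells.

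Of the 9 proteases, 8 were detected in 50% or more of cells in every class. PSEN2, a catalytic subunit of gamma-secretase, had a level of 49.2 CPM (48.3 to 50.1) in the epiblast-like class, against 3.54 (3.22 to 3.88) in the hypoblast-like and 8.01 (7.77 to 8.26) in the trophectoderm-like class, with medians over cells of 41.3, 1.42 and 4.26 CPM. These levels were 61.3, 3.74 and 7.24 CPM without cells that held markers of another class, where 1 hypoblast-like cell held 52.7% of the reads and the level without it was 1.87 CPM. Of the 5 glycosyltransferases, which add sugars to the receptors, RFNG, POFUT1 and POGLUT1 were detected in 50% or more of cells in every class, while LFNG had a read in 3 cells and MFNG in 6.

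Of the 12 genes of the nuclear complex, 9 were detected in 50% or more of cells in every class. KAT2B, a histone acetyltransferase, had its highest level of 15.1 CPM (14.8 to 15.4) in the trophectoderm-like class, against 7.82 (7.34 to 8.32) in hypoblast-like and 3.17 (2.93 to 3.41) in epiblast-like cells. It was read in 81 trophectoderm-like, 17 hypoblast-like and 23 epiblast-like cells. KAT2B was at 14.5, 4.79 and 3.05 CPM in this order without cells that held markers of another class, but 1 hypoblast-like cell then held 55.4% of the reads, and without it the hypoblast-like level was 2.94 CPM, just below the epiblast-like one. One epiblast-like cell held 25.3% of the reads of its class, and without it too the epiblast-like level was 2.36 CPM, again the lower of the 2. The order of these 2 classes thus depended on single cells in this setting. Within the trophectoderm-like class KAT2B was at 23.3 CPM in CCR7-high and 7.37 CPM in CCR7-low cells, the latter slightly below the hypoblast-like level over all cells. That order was not stable. Without the cell with the most reads in each, CCR7-low cells were at 6.63 and hypoblast-like cells at 6.12 CPM, and the medians over cells were 0.785 and 0.499 CPM.

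Among the 9 genes of endocytosis and turnover with reads in at least 20 cells, MIB1, NEURL1, NUMBL and DTX3 (44.4%) were at least 2-fold higher in epiblast-like than in trophectoderm-like cells, against 15.2% of all genes, and DTX4 (11.1%) was lower, against 7.71%. NEURL1, NUMBL, DTX2 and DTX3 were higher than in hypoblast-like cells, against 10.8%, and 0 were lower. DTX4, an E3 ubiquitin ligase of the Deltex family, had 40.1 CPM (39.5 to 40.6) in the trophectoderm-like class, where 97.3% of cells had a read, against 7.09 (6.74 to 7.46) in epiblast-like and 4.52 (4.16 to 4.90) in hypoblast-like cells. The medians of DTX4 over cells were 33.8, 3.63 and 0.282 CPM in the same order, and its levels without cells that held markers of another class were 41.5, 5.08 and 0.285 CPM, the last from 10 reads, 60% of them in 1 cell.

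Of 10 target genes, 5 were detected in 50% or more of epiblast-like cells, namely HES1, HES2, HES4, HES6 and HEY2, and 2, HES1 and HES6, in 50% or more of cells in each other class. HES2, a member of the HES family, had a level of 12.02 CPM (11.6 to 12.5) in the epiblast-like class, against 0.848 (0.696 to 1.02) in the hypoblast-like and 1.27 (1.18 to 1.38) in the trophectoderm-like class. It was read in 44 epiblast-like, 13 hypoblast-like and 26 trophectoderm-like cells, so that HES2, like HEY2 and unlike HES1, was highest in epiblast-like cells. When cells with markers of another class were left out, HES2 was at 15.3 CPM in epiblast-like, 0.942 in hypoblast-like and 1.23 in trophectoderm-like cells. Single cells then held 81.8% of the hypoblast-like and 54.9% of the trophectoderm-like HES2 reads, and without them the levels were 0.190 and 0.589 CPM. Over all cells, the trophectoderm-like level was 0.770 CPM without the cell with the most reads. The target genes did not share a direction. Of the 6 with reads in at least 20 cells, HES2 and HEY2 (33.3%) were at least 2-fold higher in epiblast-like than in trophectoderm-like cells, against 15.2% of all genes. HES1 (16.7%) was lower, against 7.71%, and HES4, HES6 and NRARP were within 2-fold on the log2(CPM + 1) scale. These counts are small, the 1 lower gene is near the background, and no test was run on them. HES4 and NRARP were under 1 CPM in every class, where this scale compresses ratios, and in plain CPM their epiblast-like levels were 3.27-fold and 3.12-fold the trophectoderm-like ones.

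**Figure D5:**
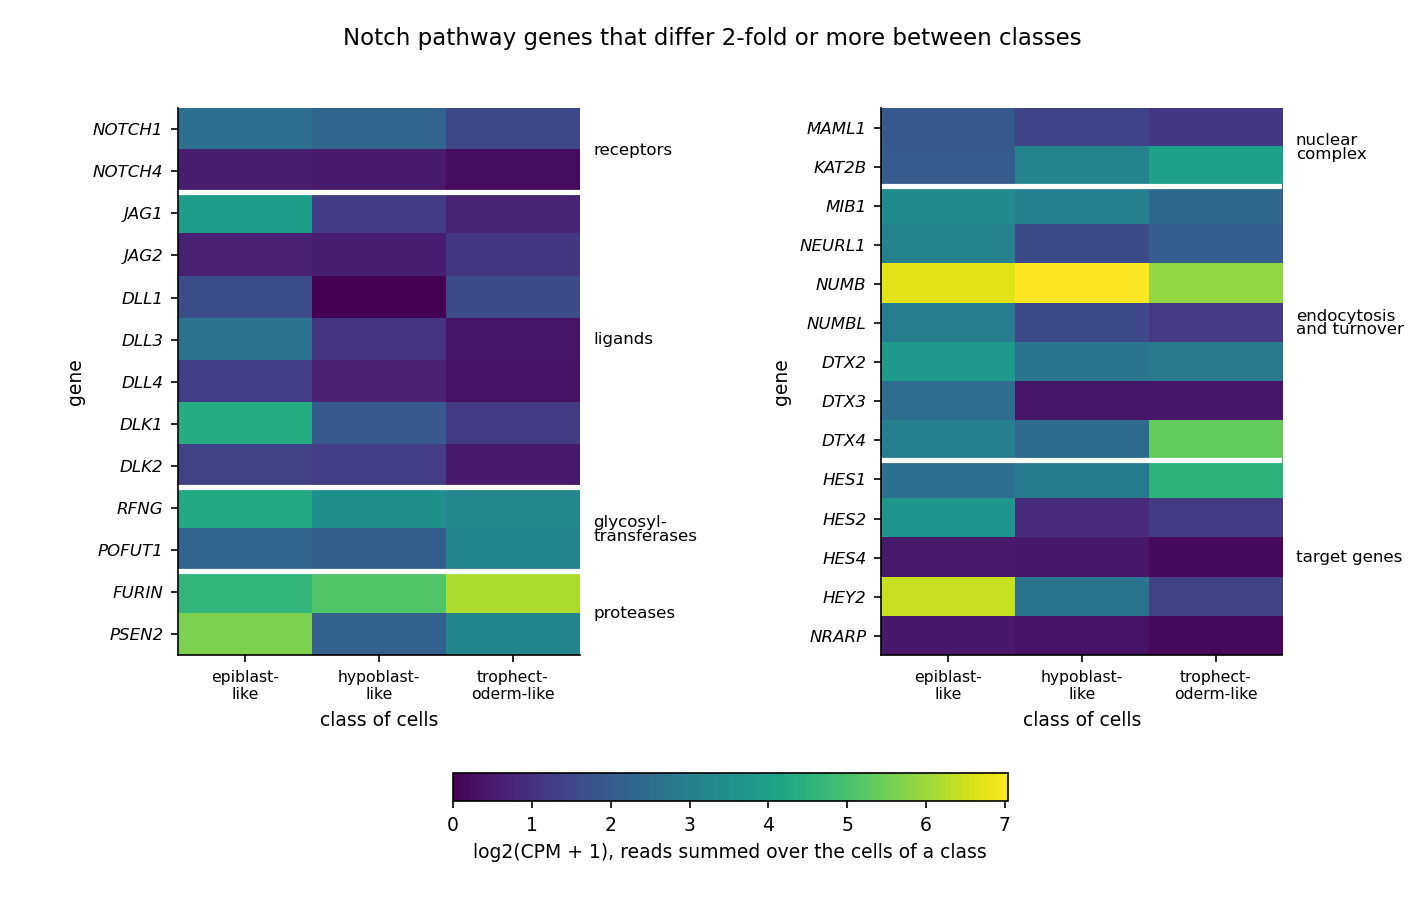
Level in each class of the 27 pathway genes with reads in at least 20 cells and 2-fold or more in CPM between the highest and the lowest class, as log2(CPM + 1) from reads summed over the cells (colour scale), with genes in rows by group and classes in columns. DLK1, JAG1, PSEN2, HES2 and HEY2 have their highest value in the epiblast-like column, and DTX4, KAT2B and HES1 in the trophectoderm-like column.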

How the data were processed

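Single cells were processed by SMART-seq2, which reads whole transcripts and uses no molecular identifiers. The authors deposited raw read counts per Ensembl gene and cell, without normalization. The methods name FastP, the gene counting of STAR and the Pan_tro_3.0 genome, while the submitters' processing notes name Trim Galore 0.6.6, STAR 2.7.7a and GRCh38. The identifiers are those of chimpanzee genes, and the disagreement was not resolved. Whether counting used strand is not given in the sources used here, so that reads of a gene and of one overlapping it on the other strand could not be told apart.

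Symbols came from a table that names 18783 of the 33729 identifiers, and those with 1 symbol were summed (HES4 and HES5 in the pathway list). Cells were kept from 4000 reads and 8000 detected genes upwards, and 24 were left out. More cells were kept than the study's text states, and its exact filter could not be rebuilt. Totals of kept cells ranged from 1679888 to 25630392 reads, and 0 pairs of cells had identical counts. With Scanpy 1.11.5, cell totals were scaled to their median and log1p-transformed, over 15757 genes with a read in at least 20 cells. The graph used 50 principal components and 30 neighbours, and Leiden clustering (leidenalg 0.10.2) a resolution of 1 and seed 0, with cells in the order of the table. Clusters were named by marker lists for the 3 lineages. The name was that of the list with the highest mean standardized log2(CPM + 1), and at least 3 of its markers had to reach 1 CPM. Every cluster met that minimum for each list, so the mean decided. No doublet caller was run and no doublet removed, but cells with at least 3 markers of another class at 10 CPM were counted.

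Levels have exact Poisson and shares exact Clopper-Pearson 95% intervals, and ratios used a pseudocount of 1 CPM. For shares at equal depth, reads were drawn down to the 10th percentile of totals, 2532312 per cell. The cells form 1 sample, so no test was computed. The scripts were tested on simulated counts. The text names the 9 members, the pathway genes with at least 10 CPM in a class and 4-fold between the highest and lowest class, and up to 3 genes per member with a Spearman correlation of at least 0.5, among genes with a symbol that 50% or more of the kept cells held. Other pathway genes in the text were named after their values were seen. The members and lists were chosen with earlier results of these data known. Alternatives to the filter, clustering, detection level, summary, pseudocount and fold were tried. Values without the cell with the most reads of a gene were all added after seeing the data. The software was Python 3.11.15 with numpy 2.4.6, scipy 1.17.1, pandas 2.3.3 and scikit-learn 1.9.0, and matplotlib 3.10.9 for figures.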

Additional observations from a re-analysis of the deposited data

Results flagged for a closer look

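The 24 cells with fewer than 8000 detected genes enter no comparison, and reads of 8 of the 9 Notch genes above the limit of 3 counts were found in them. Summed over these cells, NOTCH1 was at 8.81 CPM, NOTCH2 at 7.26 CPM, NOTCH3 at 9.68 CPM, JAG1 at 6.87 CPM and DLL3 at 2.83 CPM. RBPJ was at 121.6 CPM with a read in 23 of 24 cells, HES1 at 25.98 CPM with a read in 13, and HEY2 at 9.79 CPM with a read in 7. HEY1 had 0 reads. These cells were not given a class, and no control cells exist against which the values could be set.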

How the results depend on the processing

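No paired analysis was possible because the labels tie no cell to a blastoid, line or batch, and for the same reason no replicate could be left out. Without cells that held markers of another class, 28 epiblast-like and 8 hypoblast-like cells remained, and under the other alternatives the classes stayed within 1.5 times their size. With a gene counted from 10 CPM in place of 1 read, the Notch genes detected in 50% or more of cells were 2 for the epiblast-like class, 1 for the hypoblast-like class, 2 for the trophectoderm-like class and 2 for each of its clusters. With 4-fold in place of 2-fold as the bound, the genes past it in either direction numbered 557 in place of 2312 for epiblast-like against hypoblast-like, 1210 in place of 3573 for epiblast-like against trophectoderm-like, 788 in place of 2642 for hypoblast-like against trophectoderm-like and 359 in place of 1493 for CCR7-high against CCR7-low cells. Of 576 ratios of Notch genes under alternatives, 493 kept their side of 2-fold without a change of sign, 20 fell below 2-fold, 23 passed it, and 37 changed sign under 2-fold. The 493 include ratios that became 0 because both medians over cells were 0, and these had no direction left. The other 3 were NOTCH3 between hypoblast-like and trophectoderm-like cells, which was 0.24 and reversed past 2-fold by the median of cells (-1.23), without cells that held markers of another class (-1.04) and without these and the cell with the most reads (-1.27). Below 2-fold were NOTCH1 between epiblast-like and trophectoderm-like cells with at least 7000 genes (0.86), with 2000 variable genes (0.99), without cells that held markers of another class (0.45; 0.54 without the cell with the most reads as well) and with a pseudocount of 10 (0.32), DLL3 with a pseudocount of 10 against hypoblast-like (0.47) and trophectoderm-like cells (0.58), and HES1 between hypoblast-like and trophectoderm-like cells with a pseudocount of 10 (-0.97). HEY2 between hypoblast-like and trophectoderm-like cells was so by the median of cells (0), with 2000 variable genes (0.97), without cells that held markers of another class and the cell with the most reads (0.61) and with a pseudocount of 10 (0.43). In the trophectoderm-like clusters, NOTCH1 was so by the mean (0.85) and median (0) of cells, without the cell of highest CPM (0.91) and with a pseudocount of 10 (0.28), and NOTCH2 by the median (-0.58) and with a pseudocount of 10 (-0.59). Past 2-fold were, between hypoblast-like and trophectoderm-like cells, NOTCH1 by the mean of cells (1.32) and with a pseudocount of 0.1 (1.03), DLL3 with the latter (1.48), NOTCH2 without cells that held markers of another class (-1.29) and RBPJ under 5 alternatives (-1.26 to -1.01). Between epiblast-like and hypoblast-like cells they were NOTCH3 under 3 (1.31 to 1.91) and HES1 under 1 (-1.62), and NOTCH2 between epiblast-like and trophectoderm-like cells under 2 (-1.49 and -1.14). In the clusters they were HEY2 by the mean of cells (1.35), at resolution 1.5 (1.05) and with a pseudocount of 0.1 (1.16), JAG1 with the latter (1.20) and NOTCH3 by the median (1.43). HEY1 passed it in the 3 class comparisons with a pseudocount of 0.1 (2.47, 1.14 and -1.33). Other causes of these differences than the construction of the alternatives were not tested.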
